A study of Mus musculus with 4 samples.

Results

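Endothelial cells of mouse pancreatic islets were examined in droplet single-cell RNA-Seq libraries of Myt3 IM/IM mutant and control islets. Each cell carries its own barcode, and each captured transcript its own unique molecular identifier (UMI). Members were chosen by their own measured counts. A barcode was taken as endothelial when it held at least 1 UMI in 3 or more of 8 endothelial genes, Pecam1, Plvap, Cdh5, Kdr, Flt1, Esam, Eng and Emcn. Ins1 and Ins2 together had to stay under 30% of its UMIs, and Gcg and Sst each under 2%. Kept barcodes had 500 UMIs and 100 genes at least, and mitochondrial genes took no more than 10% of their UMIs. This rule found 117 endothelial cells among 7263 kept cells.

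The mutant mice were homozygous for an allele with 12 bases inserted in an exon of Myt3 (listed as St18), a zinc finger transcription factor of islet endocrine cells. The insertion was made with CRISPR-Cas9 in the germ line of a single line, disrupts an upstream reading frame, and is therefore present in every cell type, the endothelium included. Control mice carried wild-type alleles on both chromosomes. The study names the strain of the back-cross as CBA/BL6j in its methods and as C57Bl/6j elsewhere. According to the methods, the mice were given a high-fat diet for months from a young age, and each sample pooled islets of males and females. The methods name inDrop-Seq, while the sample labels name PIPseq and a normal diet. The labels list 4 libraries, mutant 1, mutant 2, control 1 and control 2. Matrices of 3 libraries were read, while control 1 had barcodes alone and its expression is not analysed here. No barcode was shared by any pair of libraries (0 shared barcodes). Genotypes were not tested against each other, since 1 control library was read, and each mutant library is set beside control 2 as a value. The labels enter a batch for control 2 that is 1 digit away from the entry of the rest and is no calendar date. Whether it marks a separate batch is not given, and any batch and genotype cannot be told apart.

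Islet endothelial cells line a dense bed of fenestrated capillaries, through which hormones reach the blood. β cells release VEGFA, which acts on the endothelial receptors VEGFR2 (Kdr) and VEGFR1 (Flt1) and keeps the capillaries fenestrated. In return the endothelium lays down the vascular basement membrane that borders β cells and releases growth factors and nitric oxide.

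Endothelial cells made up 43 of 2940 kept cells in mutant 1, or 1.46% (95% Clopper-Pearson interval 1.06 to 1.97). They made up 34 of 2040 in mutant 2, or 1.67% (1.16 to 2.32), and 40 of 2283 in control 2, or 1.75% (1.25 to 2.38). The 3 intervals overlap. With each cell thinned to 500 UMIs the shares were 1.22%, 1.47% and 1.53%. With no hormone limits the shares were 1.56% (1.15 to 2.08), 2.89% (2.21 to 3.71) and 5.17% (4.30 to 6.16), and the interval of control 2 then lay above those of the mutant libraries. The intervals cover counting error within each library only, so neither their overlap nor their gap compares the genotypes, and a difference in share was not tested. Endothelial cells had medians of 1985, 2262 and 5635 UMIs in the same order of libraries, and together 109693, 99378 and 334982 UMIs. The same cells of control 2 were thus read deeper, as were all its kept cells, with a median of 14051 UMIs against 2427 and 3851.5 in the mutant libraries. Relative levels and levels per cell cannot be told apart where depth differs, so levels are given below as CPM, the UMIs of a gene scaled to a common library total, and detection at a fixed depth.

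The 8 genes that chose the cells took a median of 2.07% and 2.26% of a member's UMIs in the mutant libraries and 2.42% in control 2. Over the remaining kept cells their mean share was 0.0103%, 0.0111% and 0.00575%. The members fell into separate ranges on this measure. In 10 members, 4 of them from control 2 and 3 from each mutant library, the 8 genes took at most 0.108% of UMIs, and in the other 107 at least 0.575%. The low-marker members carried transcripts of other islet cells. One of them, in mutant 1, held 13936 UMIs with 2283 of Ppy, the hormone of PP cells. In 7 of the others Ins1 and Ins2 took from 20% to 29.7% of UMIs. In control 2, a low-marker member held 178 UMIs of Cd74 and 9 of 10 leukocyte markers, and another held 44 UMIs of Col1a2 and 7 of 10 markers of stellate cells and fibroblasts. These 10 cells held 21.6%, 15.6% and 5.38% of the endothelial UMIs in the 3 libraries, so values are also given without them where they change a result. Their removal was chosen after their values were seen. At the edge of the rule, 9 members had exactly 3 of the 8 genes, with a median share of 0.0640%, 0.107% and 0.0699% of UMIs. The 52 cells with exactly 2 of the genes, just outside, had medians of 0.0797%, 0.0542% and 0.0469%. The hormone limits set aside 3, 25 and 78 more cells, in which the 8 genes took a median of 0.0389%, 0.0415% and 0.0152% of UMIs.

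**Figure D1:**
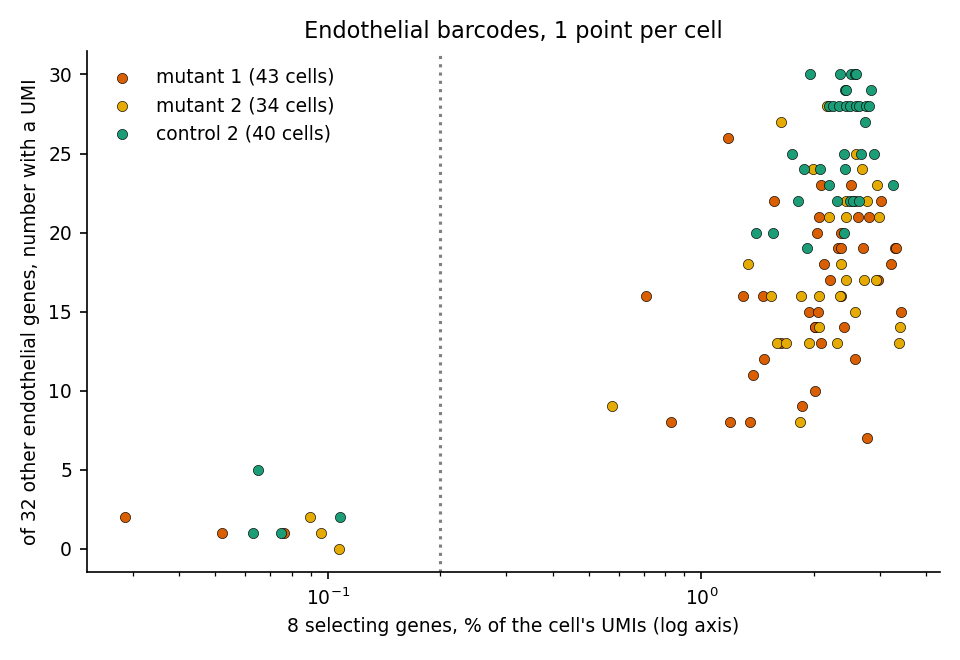
Each point is an endothelial cell, with the share of its UMIs in the 8 selecting genes on a log axis and the number of 32 other endothelial genes with a UMI on the vertical axis. The 10 low-marker cells lie left of the dotted line at 0.2% and hold 0 to 5 of the other genes, and the remaining 107 cells hold 7 to 30.

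A list of 32 endothelial genes that the rule did not use was counted in every cell, each cell thinned to 500 UMIs. No kept cell was too shallow for this depth. Members held a median of 8, 8 and 9 of these genes in mutant 1, mutant 2 and control 2, and 16, 16.5 and 25 before thinning. Stellate-marked cells held a median of 0.5, 0 and 0 at 500 UMIs, and leukocyte-marked and β cells held 0 in every library. At least 5 of the 32 genes were found in 38 of 43, 30 of 34 and 36 of 40 members, and in 0 of 4938 β cells. The label of the cells therefore also held on genes outside the rule, apart from the low-marker members.

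Plvap, which builds the diaphragm of capillary fenestrae, had a UMI in 88.4%, 88.2% and 85.0% of members at 500 UMIs, and Flt1 in 90.7%, 88.2% and 85.0%. Both are selecting genes, so their detection in members was favoured by the choice of cells. In β cells, which should lack both, Plvap was found in 0.782%, 1.03% and 0.371% at the same depth and Flt1 in 0.391%, 0.556% and 0.424%. Outside the rule, Ly6c1, a surface antigen of capillary endothelium, was found in 72.1%, 64.7% and 72.5% of members and in 0.447%, 0.238% and 0.0530% of β cells. Esm1 (endocan), a secreted proteoglycan of VEGF-exposed endothelium, was found in 60.5%, 58.8% and 57.5% of members and in 0.391%, 0.794% and 0.159% of β cells. Mmrn2, an endothelial matrix glycoprotein, was found in 62.8%, 55.9% and 57.5%, and Podxl, a sialomucin of the luminal surface, in 60.5%, 50.0% and 72.5%. For Ly6c1, Esm1 and Mmrn2 the 3 libraries lay within 8 percentage points of each other. Some of the 32 genes were sparse. Cldn5, a tight junction gene of most capillaries, had 0, 4 and 1 UMIs in the members of mutant 1, mutant 2 and control 2, and Ramp2, a partner of the adrenomedullin receptor, had 5, 4 and 96.

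**Figure D2:**
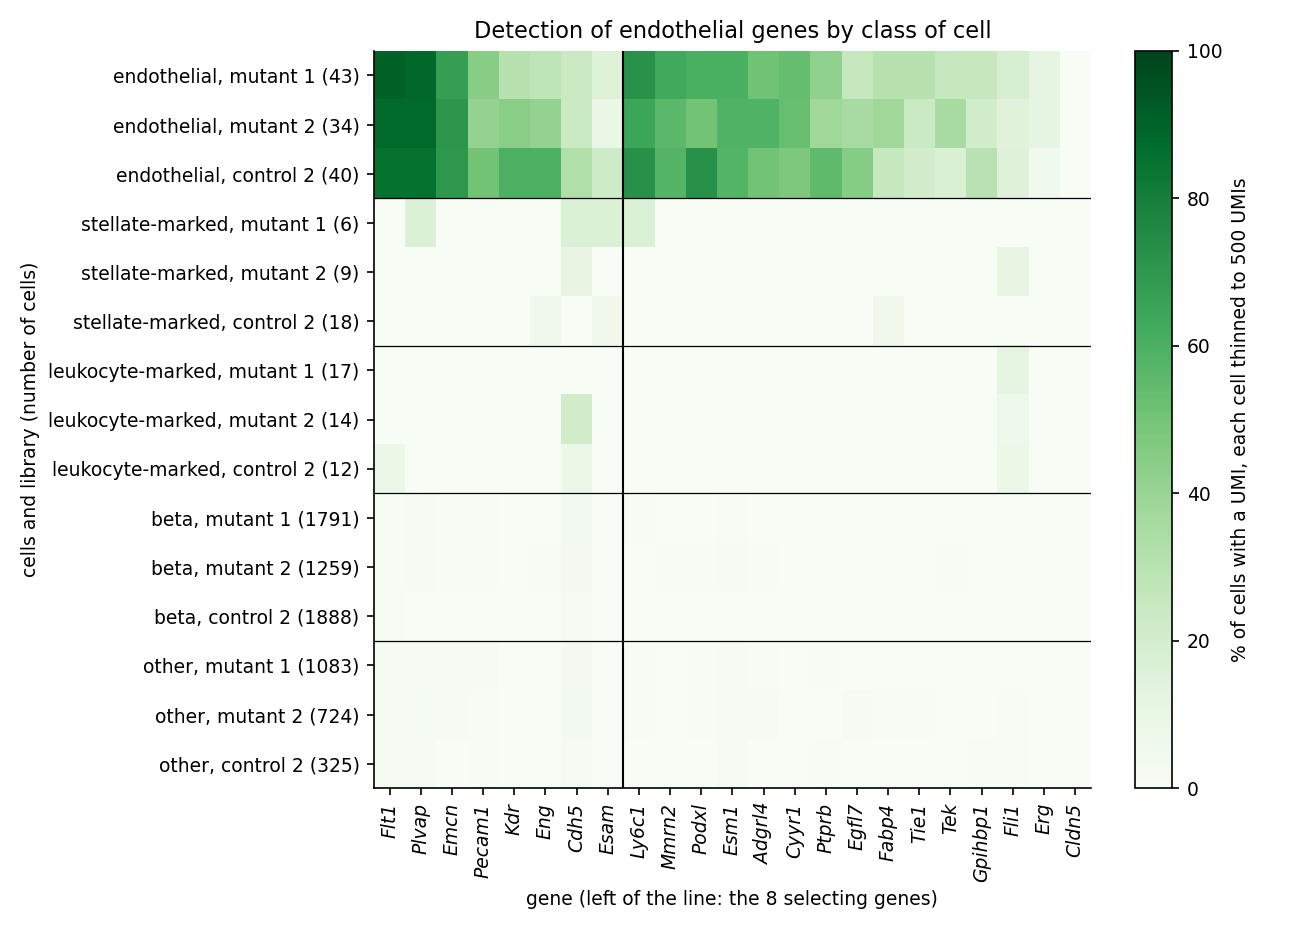
Colour gives the share of cells with a UMI of each gene after thinning each cell to 500 UMIs, for each class of cell and library. The selecting genes Plvap and Flt1 are at 85.0% or more in the endothelial rows of every library. Outside the rule, Ly6c1 is at 64.7% or more there and at 0.447% or less in β cells.

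Each member library was summed and set beside the sum of all other kept cells of the same library, as log2 ratios of CPM. These cells were chosen for endothelial genes, so the ratios describe the population and carry no test. Of 832 genes with a mean of 200 CPM or more, 313 (37.6%) had at least 4-fold higher levels in the endothelial cells of all 3 libraries. The median ratio over all 832 genes was 1.44, 1.61 and 2.09 on the log2 scale. Insulin transcripts took 43.2%, 45.2% and 57.7% of the UMIs of β cells, which lowers the CPM of every other gene there. Genes outside the rule were ranked by the smallest of their 3 library ratios. Furthest above the other cells by this measure was Mmrn2, with 1778, 1580 and 1603 CPM in the endothelial cells and log2 ratios of 8.68, 8.97 and 10.14. Rbp7, a retinol-binding protein of capillaries, followed with ratios of 8.51, 9.01 and 9.89, and Mgll, which splits monoacylglycerols, with 8.47, 8.62 and 9.74. The stem cell and endothelial antigen Cd34 had ratios of 8.28, 8.33 and 9.82, and the thromboxane receptor Tbxa2r 8.20, 9.31 and 9.49. Within single libraries the order differed, as Clec14a had 9.79 in mutant 1, and Tbxa2r and Rbp7 exceeded Mmrn2 in mutant 2. The other genes among the 20 furthest above were Clec14a, Ctla2a, Plpp3, S1pr1, Esm1, Igfbp3, Gpihbp1, Cyyr1, Ly6c1, Ly6a, Plpp1, Sost, Myct1, Fabp4 and Ecscr. S1pr1 is the sphingosine 1-phosphate receptor that steadies the barrier. Gpihbp1 carries lipoprotein lipase to the capillary lumen, and Fabp4 binds fatty acids inside the cell.

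Genes of islet capillaries had the most UMIs of the vessel type lists. They include the selecting genes Plvap and Kdr, so this order was favoured by the choice of cells. All UMIs of the 14 islet capillary genes summed to 1472 and 1549 in the mutant libraries and 7784 in control 2. Of these, Plvap alone held 548, 575 and 1941, and Kdr 94, 128 and 1042. Tip cell genes held 412, 402 and 1560 UMIs, of which 381, 369 and 1277 were of Esm1. Arterial genes were scarce, with 65, 98 and 585 UMIs over 11 genes. Their share of endothelial UMIs was 0.0593%, 0.0986% and 0.175%. Sema3g, an arterial semaphorin, held 6, 9 and 121 UMIs, and Gja4, the arterial connexin 37, held 5, 2 and 69. Venous genes held 13, 78 and 105 UMIs, and 62.8% of those of mutant 2 lay in 1 cell. Single cells there held 10 of 12 UMIs of Vwf, von Willebrand factor, and 14 of 15 of Selp, the P-selectin of venules. Of the lymphatic genes, Lyve1 was at 0 in all 3 libraries, and most of the UMIs were of Flt4 (VEGFR3), which fenestrated capillaries also express, with 13, 14 and 72. A count of 0 allows up to 28.1, 28.7 and 9.17 CPM in the 3 libraries (3 UMIs). Sele, the adhesion molecule of inflamed endothelium, was also at 0 throughout. Of the cell cycle genes, Mki67 had 1, 1 and 0 UMIs and Top2a had 0, and Pcna, a replication clamp that resting cells also express, made up most of the rest with 14, 12 and 42.

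Transcripts of other cell types in the members were low except for hormones. Markers of stellate cells and fibroblasts summed to 6, 7 and 223 UMIs over 10 genes, led in control 2 by Rgs5 with 74. In control 2, 105 of them lay in 1 cell, and 117 remained when the low-marker members were left out. Only control 2 had members with 3 or more such markers (4 cells). Leukocyte markers summed to 5, 3 and 115, and 93.0% of those in control 2 lay in 1 cell. Schwann cell markers reached at most 1 UMI. Red blood cell genes were found in mutant 2 alone, with 64 UMIs in 1 cell. Endocrine markers took 15.7%, 11.3% and 5.37% of the members' UMIs, or 12.1%, 5.85% and 4.39% when the low-marker members were left out, and Ins2 alone had 9132, 6290 and 10733 UMIs. The median member had 4.23%, 4.21% and 4.38% of its UMIs in Ins1 and Ins2. Leukocyte-marked cells had medians of 5.29%, 4.24% and 5.25%, so insulin in the median member was near the level of cells that should lack it. Single members held more, up to 26.8% in mutant 1 without the low-marker members. Of the summed UMIs, which the ratios below use, insulin took 9.80%, 7.43% and 4.21% in members. In leukocyte-marked cells it took 11.2%, 4.84% and 6.08%. Gcg took a median of 0.178%, 0.240% and 0.0191% of a member's UMIs and 0.242%, 0.259% and 0.0413% in leukocyte-marked cells.

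The targeted gene was near its floor in the endothelium. Myt3 (St18) had 3, 7 and 4 UMIs in the members of mutant 1, mutant 2 and control 2, in 2, 5 and 4 cells. Without the low-marker members it had 0, 2 and 3 UMIs. β cells held 81.8, 97.8 and 79.9 CPM of it, so the endothelial values of 27.3, 70.4 and 11.9 CPM lay below those of β cells in every library. The insertion cannot be read from UMI counts per gene, and these counts do not check the genotype labels. Vegfa, the ligand, had 12, 6 and 12 UMIs in members (109, 60.4 and 35.8 CPM) and 139, 139 and 74.3 CPM in β cells.

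Between libraries, the summed endothelial counts were scaled by edgeR's trimmed mean of M values (TMM), and each mutant library was divided by control 2 with a prior count of 1. Of 829 genes with a mean of 200 CPM or more, 53 (6.39%) had log2 ratios above 1 in both mutant libraries and 75 (9.05%) had ratios below -1 in both. The median ratio was -0.17 in mutant 1 and -0.16 in mutant 2. Mutant 1 exceeded mutant 2 by more than 1 in 24 genes and fell below it by as much in 28. Both ratios share control 2, so their likeness includes whatever is particular to that library. The mean of 200 CPM is taken over the 3 libraries, so a gene low in both mutant libraries can reach it through control 2 alone. Among the 75 lower genes, 43 were at least 4-fold higher in endothelial than in other cells (13.7% of the 313 such genes), and 33 passed the same limit in the other kept cells. Among the 53 higher genes, 3 were endothelial by that measure (0.958% of the 313), Smpdl3a, Sost and Ly6c2, while 21 of the 53 lay below the other cells in every library and 27 passed the limit there too. β cells were 1791 of 2940 kept cells in mutant 1, 1259 of 2040 in mutant 2 and 1888 of 2283 in control 2. The other kept cells thus differ in make-up between libraries, and make-up and level cannot be told apart in their ratios. Without the low-marker members, 31 of 886 genes (3.5%) were higher and 67 (7.56%) lower, and 26 and 56 of the genes above were among them. In members of 2000 to 8000 UMIs only, with 19, 16 and 22 cells, 46 of 812 genes were higher and 38 lower.

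**Figure D3:**
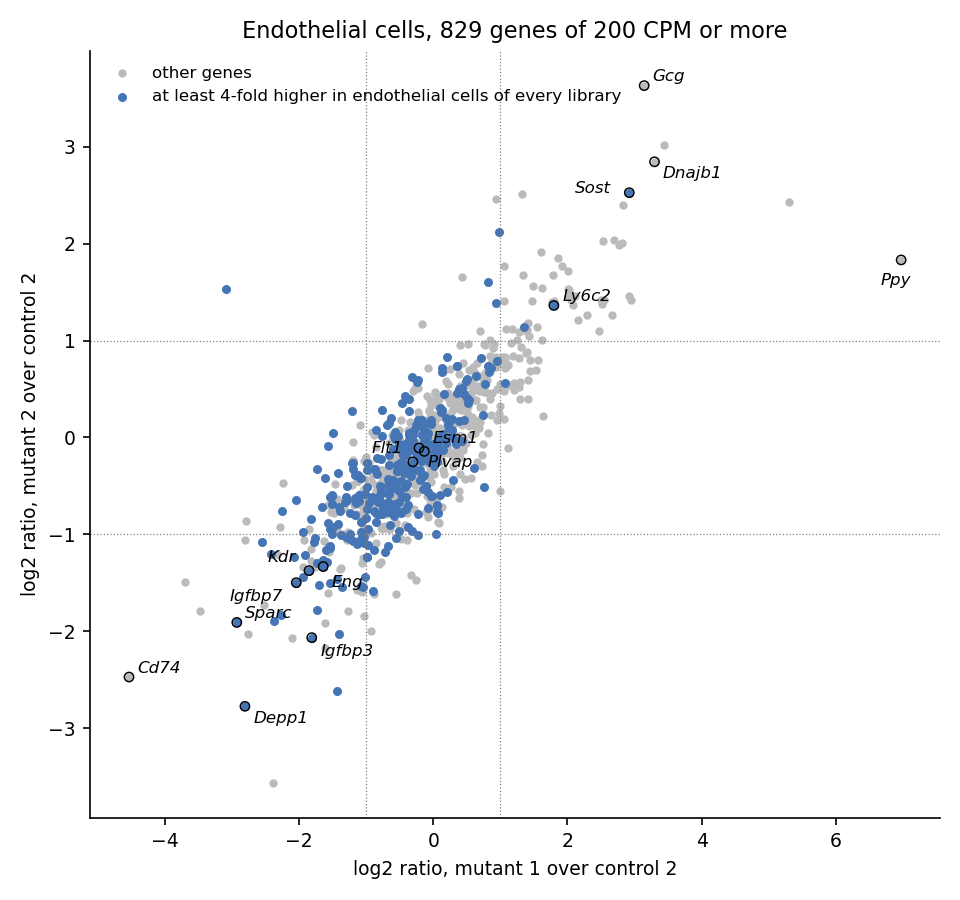
Each point is a gene with a mean of 200 CPM or more in endothelial cells, with its log2 ratio to control 2 in mutant 1 (horizontal) and mutant 2 (vertical). Dotted lines mark ratios of 1 and -1, and blue points are genes at least 4-fold higher in endothelial than in other cells of all 3 libraries, of which Sost and Ly6c2 lie at upper right and Sparc, Depp1 and Igfbp3 at lower left.

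Of the 8 genes that chose the cells, Plvap, Flt1, Emcn, Pecam1 and Cdh5 had ratios to control 2 inside the limit. As the cells were admitted for UMIs of these genes, their levels are a description. Plvap was at 5125 CPM in mutant 1, 5506 in mutant 2 and 5935 in control 2, Flt1 at 5518, 5717 and 6807, and Emcn, a sialomucin of veins and capillaries, at 2366, 2385 and 2663. Pecam1, the junctional adhesion molecule CD31, was at 1263, 1417 and 1290 CPM, and Cdh5, VE-cadherin, at 570, 670 and 758. Esm1, outside the rule, was at 3563, 3534 and 3905 CPM. Their ratios to control 2 ran from -0.41 to 0.13 on the log2 scale. By contrast Kdr was at 879, 1226 and 3186 CPM, which gave ratios of -1.85 and -1.37. Eng (endoglin), a co-receptor for BMP9 and TGF-beta, was at 711, 881 and 2226 CPM, with ratios of -1.64 and -1.33. Esam, an adhesion molecule of endothelial junctions, was at 196, 172 and 514 CPM, with ratios of -1.36 and -1.55. At 500 UMIs a cell, Kdr was found in 30.2%, 44.1% and 60% of members and Eng in 27.9%, 41.2% and 60%. Between cells of 2000 to 8000 UMIs the Kdr ratios were -0.89 and -1.28 and those of Eng -0.91 and -1.20, so mutant 1 then lay inside the limit for both. Over cells thinned to 500 UMIs they were -1.19 and -0.55 for Kdr and -1.47 and -0.88 for Eng, so mutant 2 lay inside it there. Esam had -0.87 and -1.34 between cells of 2000 to 8000 UMIs and -0.60 and -1.06 over thinned cells. Mutant 1 thus lay inside the limit in both, and Esam passed in 7 of 10 other settings.

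**Figure D4:**
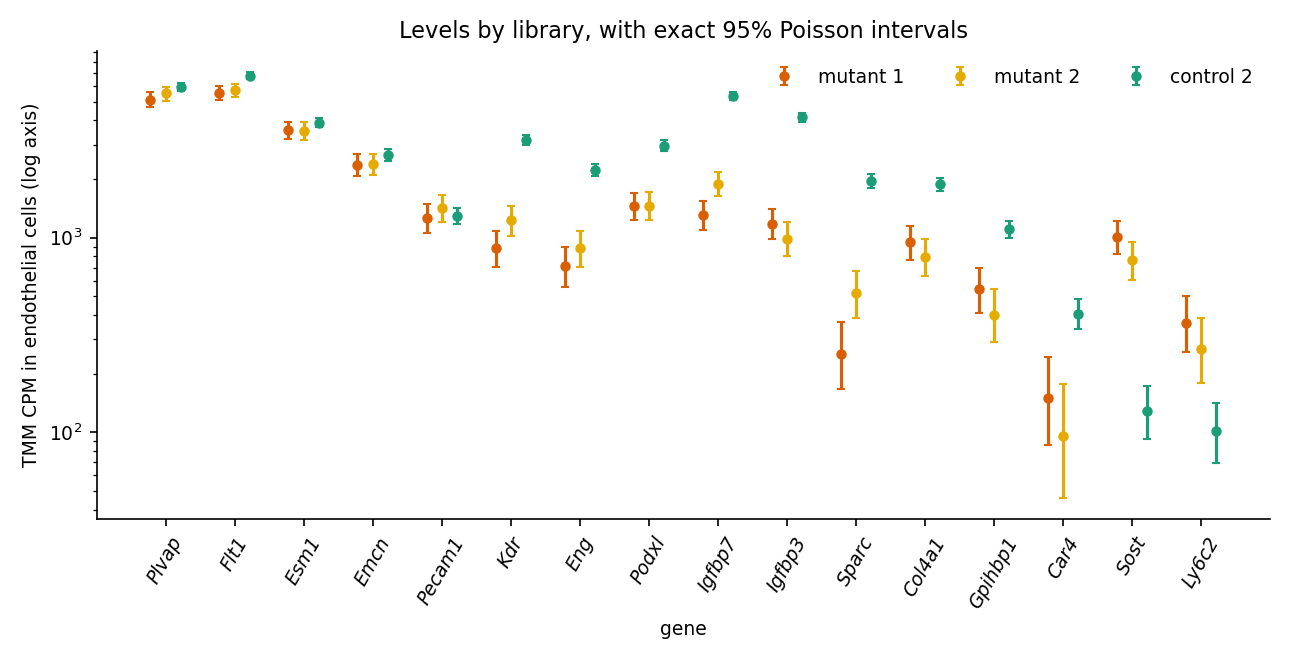
Points are levels of 16 genes in the summed endothelial cells of each library, in CPM on a log axis, with exact 95% Poisson intervals that cover counting error only. Plvap, Esm1, Emcn and Pecam1 lie close together in the 3 libraries, Kdr through Car4 are highest in control 2, and Sost and Ly6c2 are lowest there.

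Receptors and ligands of the VEGF and angiopoietin system were measured in 13 genes, of which 5 reached 200 CPM, the selecting genes Kdr and Flt1 among them. Kdr alone passed the limit, beside 9.05% of all genes and 13.7% of endothelial genes. Tek (TIE2), the angiopoietin receptor, was at 524, 412 and 419 CPM, and its relative Tie1 at 505, 575 and 734, with ratios of 0.32 and -0.02 and of -0.53 and -0.35. Nrp1, a co-receptor for VEGFA, was at 411, 594 and 1104 CPM, with ratios of -1.41 and -0.89. Angpt2, the angiopoietin that loosens vessels, had 3, 1 and 29 UMIs. Over the list the median ratio was -0.53 in mutant 1 and -0.35 in mutant 2, beside -0.17 and -0.16 over all genes, and at 500 UMIs a cell it was -0.07 and 0.01. At that depth Tek passed the limit upward, with ratios of 1.06 and 1.13, and Kdr did not pass it, with -1.19 and -0.55.

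Genes of BMP and TGF-beta signalling lay below control 2. Of 11 genes, 7 were measured at 200 CPM or more, all 7 had ratios below 0 in both mutant libraries, and 3 (Eng, Smad7 and Id3) passed the limit, where 9.05% of all genes and 13.7% of endothelial genes did. Eng is one of the selecting genes. Smad7 and Id3 were under 200 CPM in both mutant libraries and reached the mean of 200 CPM only through control 2. These calls are therefore a description. Over the 7 genes the median ratios were -1.64 and -0.80, and over 10 other settings they ran from -1.66 to -0.91 and from -0.86 to -0.37. Of the 7, 2 passed without the low-marker members, and none did (0 genes) in members of 2000 to 8000 UMIs. Smad7, an inhibitor that the pathway itself switches on, had 8, 19 and 139 UMIs and ratios of -2.42 and -1.20. Id3, a target of BMP signalling, had 7, 20 and 134 UMIs and ratios of -2.55 and -1.08, and passed in 3 of the 10 settings. Id1, a further target, was at 252, 259 and 450 CPM with ratios of -0.82 and -0.78, and the receptors Bmpr2 and Acvrl1 had ratios of -1.16 and -0.80 and of -1.02 and -0.58. In the other kept cells Id1 stood the opposite way, with ratios of 1.33 and 1.34. Over cells thinned to 500 UMIs, Id1 had ratios of 0.17 and -0.29, Id3 of -2.44 and -2.31, and Smad7 of -2.53 and -0.83. In members of 2000 to 8000 UMIs Id3 had -1.67 and -0.79 and Smad7 -1.49 and -0.62.

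Of 12 listed secreted signals of endothelium 4 were measured, of which Igfbp3 and Igfbp7 passed the limit downward (2 genes), beside 9.05% of all genes and 13.7% of endothelial genes. Ccn1, a matricellular protein, had ratios of -2.04 and -0.65, and Pdgfd lay above control 2 with 0.28 and 0.01. The list's medians were -1.93 and -1.07. In the basement membrane list, Sparc, a matrix glycoprotein that binds collagen, had 27 and 54 UMIs in the mutant libraries and 640 in control 2, or 252, 517 and 1957 CPM. Control 2 was highest and the mutant libraries differed from each other by 1.02, with ratios of -2.93 and -1.91. Sparc was found in 14%, 17.6% and 62.5% of members at 500 UMIs. Igfbp7, a secreted binding protein of vessel walls, was at 1300, 1896 and 5366 CPM, with ratios of -2.04 and -1.50. It was found in 60.5%, 64.7% and 85.0% of members at 500 UMIs. Igfbp3, which binds insulin-like growth factors, was at 1178, 986 and 4146 CPM, with ratios of -1.81 and -2.07. In members of 2000 to 8000 UMIs its ratios were -0.29 and -0.90. Of the 13 basement membrane genes 7 were measured, 6 of them below control 2 in both mutant libraries, and Sparc alone passed the limit, a share near the 13.7% of endothelial genes. Col4a1, the main chain of collagen IV, was at 945, 795 and 1881 CPM (ratios -0.99 and -1.24), and perlecan (Hspg2) at 365, 546 and 1040 (-1.50 and -0.92). Lama4, the laminin chain typical of endothelium, was at 234, 268 and 263 CPM with ratios of -0.17 and 0.03. At 500 UMIs, Col4a1 was found in 51.2%, 52.9% and 47.5% of members. Its ratios over cells thinned to the same depth were -0.20 and -0.10. Pdgfb, a platelet-derived growth factor that recruits pericytes, was at 168, 134 and 211 CPM, under the minimum of 200 CPM in the mean. Its relative Pdgfd, at 449, 373 and 370 CPM, did not pass the limit.

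Among the other islet capillary genes, Car4, a carbonic anhydrase of the luminal surface, had 16, 10 and 133 UMIs and ratios of -1.41 and -2.02. Gpihbp1 was at 542, 402 and 1104 CPM (-1.02 and -1.44) and Btnl9, a butyrophilin of capillary endothelium, at 299, 402 and 878 (-1.53 and -1.11). At 500 UMIs Car4 was found in 16.3%, 8.82% and 17.5% of members and Gpihbp1 in 25.6%, 20.6% and 30%. Over the 11 of 14 capillary genes measured the median ratios were -1.11 and -0.90, all 11 were below 0 in both libraries, and 5 passed the limit, namely Kdr, Igfbp3, Car4, Gpihbp1 and Btnl9, beside 9.05% of all genes and 13.7% of endothelial genes. The limit was passed by 4 of them without the low-marker members, and Gpihbp1 passed in 2 of 10 settings. Kdr is one of the selecting genes, and Car4 reached the minimum in the mean CPM only through control 2. The count of 5 is therefore a description. The size of the list's ratios differed between settings. With the mean over cells, unthinned, the medians of the list were -0.60 and -0.49 and 2 genes passed. Thinning changes both the depth of a cell and its weight in the sum. With every cell thinned to 500 UMIs the medians of the list were -0.02 and -0.06 and 1 gene passed, and in members of 2000 to 8000 UMIs, whose median depth was 2804, 3787.5 and 4517 UMIs, they were -0.47 and -0.78 with 1 gene. For comparison, the 24 measured endothelial genes outside the rule had medians of -0.57 and -0.38, and 3 passed the limit downward. These 3 were Podxl, Cd93 and Gpihbp1, and without the low-marker members none of the 24 passed (0 genes). Their medians turned to 0.15 and 0.04 with cells thinned to 500 UMIs. In the other kept cells the medians of the capillary list were 0.41 and 0.09.

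Of 5 measured caveolae and diaphragm genes, 4 lay below control 2 in both mutant libraries, with list medians of -1.16 and -0.37. The median of mutant 2 changed sign in 2 of the 10 other settings, and that of mutant 1 in 0. Ehd4, which shapes membrane necks, passed the limit with ratios of -1.76 and -1.03, beside 13.7% of endothelial genes. It did so in 3 of the 10 other settings. By contrast Cavin1, the caveolar coat protein, was at 1104, 1187 and 780 CPM with ratios of 0.50 and 0.60. The 4 measured junction genes were F11r and the selecting genes Pecam1, Cdh5 and Esam, of which Esam passed downward as given above. They had medians of -0.22 and -0.02, and they changed sign in mutant 1 in 3 and in mutant 2 in 5 of the 10 other settings. Klf2, a transcription factor that responds to blood flow, was at 935, 1695 and 1257 CPM with ratios of -0.42 and 0.43. Thbd (thrombomodulin), an anticoagulant receptor, was at 355, 393 and 621 CPM, with ratios of -0.80 and -0.65. Neither ratio of either gene passed 1.

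Immune genes of the endothelium stood on both sides of control 2. For MHC class I, H2-K1 was at 2684, 2480 and 1596 CPM (ratios 0.75 and 0.63) and its chaperone Tapbp at 1253, 1120 and 700 (0.83 and 0.67), whereas the light chain B2m was at 945, 1484 and 2321 (-1.29 and -0.64). None of the 4 measured genes passed the limit in both libraries (0 genes), and their medians were 0.43 and 0.45. B2m passed it downward in 2 of 10 other settings. Its ratios were -1.13 and -1.39 over cells thinned to 500 UMIs and -1.33 and -1.01 in members of 2000 to 8000 UMIs. The medians of the list stayed above 0 in all 10 settings. Of MHC class II, Cd74, the invariant chain, had 2, 10 and 182 UMIs, and 178 of those in control 2 were in the leukocyte-marked member named above. Without the low-marker members its ratios were -0.12 and 2.26. Interferon response genes had no member past the limit among 4 measured (0 genes), with medians of -0.87 and -0.23. Irf1, with 6, 24 and 138 UMIs, passed it downward in 2 of 10 other settings. The ratios of Irf1 were -1.41 and -1.24 over cells thinned to 500 UMIs. In members of 2000 to 8000 UMIs they were -2.86 and -1.35. Ly6a (SCA-1), an interferon-responsive antigen of endothelium, was at 2516, 2327 and 2382 CPM, with ratios of 0.08 and -0.03.

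Among the genes higher in the mutant libraries, Sost (sclerostin), a secreted inhibitor of WNT signalling best known from osteocytes, was the one of the 10 highest that was endothelial. It had 108 and 80 UMIs in the mutant libraries and 42 in control 2, or 1010, 766 and 128 CPM, and its ratios to control 2 were 2.92 and 2.53. Both mutant libraries lay above control 2. Sost was present in 20 of 43, 9 of 34 and 9 of 40 members and, at 500 UMIs a cell, in 32.6%, 17.6% and 2.5%. Without the low-marker members the ratios were 3.11 and 2.60. In members of 2000 to 8000 UMIs they were 2.42 and 0.95. Sost was also higher in the other kept cells of the mutant libraries, where its level was far lower, with ratios of 3.53 and 3.13. Ly6c2, a close relative of Ly6c1 whose reads the counting may split, was at 365, 268 and 101 CPM, with ratios of 1.80 and 1.36. Smpdl3a, a secreted phosphodiesterase, was at 1515, 1302 and 587 CPM, with ratios of 1.36 and 1.14. Both genes stood the same way in the other kept cells, at 1.96 and 1.14 and at 1.58 and 1.15.

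Of the other genes among the 10 highest, Gcg (glucagon), at 2179, 3055 and 242 CPM, had ratios of 3.14 and 3.63, and the other kept cells had 2.63 and 2.82. The rule limits Gcg in members, so its endothelial values are a description. Mafa, a β-cell transcription factor, was at 552, 412 and 45.9 CPM with ratios of 3.44 and 3.02. These were 3.36 and 2.06 when the low-marker members were left out and 2.0 and 1.84 in the other kept cells. The paper reports the opposite direction, with Mafa downregulated in mutant β cells. Its comparison covers β cells and both control samples, while the ratios here use control 2 alone and were not taken in β cells alone. Dnajb1, a heat shock co-chaperone, was at 2244, 1638 and 223 CPM with ratios of 3.30 and 2.84, and in the other kept cells it had 3.14 and 2.96. Pyy, with 552, 73 and 41 UMIs, held 538 of those of mutant 1 in low-marker members, and without them its ratios were 0.55 and 1.27. Atf5, Resp18, Mettl15, Phactr1 and Scgn completed the 10 highest, and of these Atf5, Resp18, Phactr1 and Scgn lay below the other cells in every library. The ratios of Phactr1 were 2.77 and 0.40 without the low-marker members, and those of Resp18 went from 2.69 and 2.04 to 1.53 and 1.65. Immediate early and heat shock genes stood on both sides of control 2. Of 14 measured, 5 were above it and 6 below it in both mutant libraries, with medians of -0.10 and 0.10, and the first of these changed sign in 5 of the 10 other settings. Jun, a subunit of AP-1, had ratios of -1.46 and -0.48, and none of the 14 passed downward (0 genes). The limit was passed upward by 4, Fos, Dnajb1, Hspa1a and Hsp90aa1, beside 6.39% of all genes, and 3 passed without the low-marker members, when Fos had 0.88 and 1.12. In members of 2000 to 8000 UMIs 2 of the 14 passed, and Hspa1a had 0.65 and 0.01. With cells thinned to 500 UMIs 2 passed. Of 9 measured endocrine markers, 4 passed upward, Gcg, Ppy, Chga and Iapp, beside 6.39% of all genes. The rule limits Ins1, Ins2 and Sst of this list as well as Gcg, so the count of 4 is a description. The low-marker members held 2294 of the 2334 Ppy UMIs of mutant 1. Without them 3 of 7 measured markers passed, Ppy among them, and Chga and Iapp had 0.99 and 0.80 in mutant 2. Of the 9 markers, 1 passed in members of 2000 to 8000 UMIs, with medians of 0.73 and 0.88. With cells thinned to 500 UMIs 2 passed, with medians of 0.60 and 0.70. The part of free RNA from endocrine cells was not tested.

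Several of the 10 lowest genes stood the same way in the other kept cells. Depp1, a target of FOXO factors, had 8, 8 and 182 UMIs and ratios of -2.81 and -2.77, with -2.27 and -2.51 in the other kept cells. Rpl37a, a ribosomal protein gene, had 26, 26 and 348 UMIs and ratios of -2.10 and -2.07, with -2.71 and -2.30 in the other cells. The mitochondrial transcript mt-Co2 had ratios of -2.77 and -2.03 and, in the other cells, -2.99 and -2.88. Of 61 measured cytosolic ribosomal protein genes 11 were lower past the limit and 0 higher, beside 9.05% and 6.39% of all genes, and the medians were -0.76 and -0.62 beside -1.17 and -1.10 in the other cells. Aldh2, mitochondrial aldehyde dehydrogenase, had ratios of -2.27 and -1.84 in endothelial cells and -0.90 and -0.95 in the others. Dlc1 was outside the 10 lowest and was chosen after its values were seen. It had 31, 38 and 299 UMIs and ratios of -1.64 and -1.32, against -0.07 and -0.16 in the other cells. Crip1, Ybx1, Mgp, Sparc, Igfbp3 and Cd74 were the others of the 10 lowest. Crip1 had ratios of -2.38 and -1.89 and, in the other kept cells, -3.18 and -3.21. In those cells Sparc had -1.07 and -1.27 and Igfbp3 -0.80 and -1.45. Mgp, a matrix protein of vessel walls and stellate cells, had 10, 4 and 168 UMIs and ratios of -2.39 and -3.56. It passed the limit in 9 of 10 other settings, with -1.61 and -2.90 when the low-marker members were left out. When members carrying markers of another cell type were left out its ratios were 2.86 and 1.69, and 9 of the 10 UMIs of mutant 1 lay in 1 cell.

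**Figure D5:**
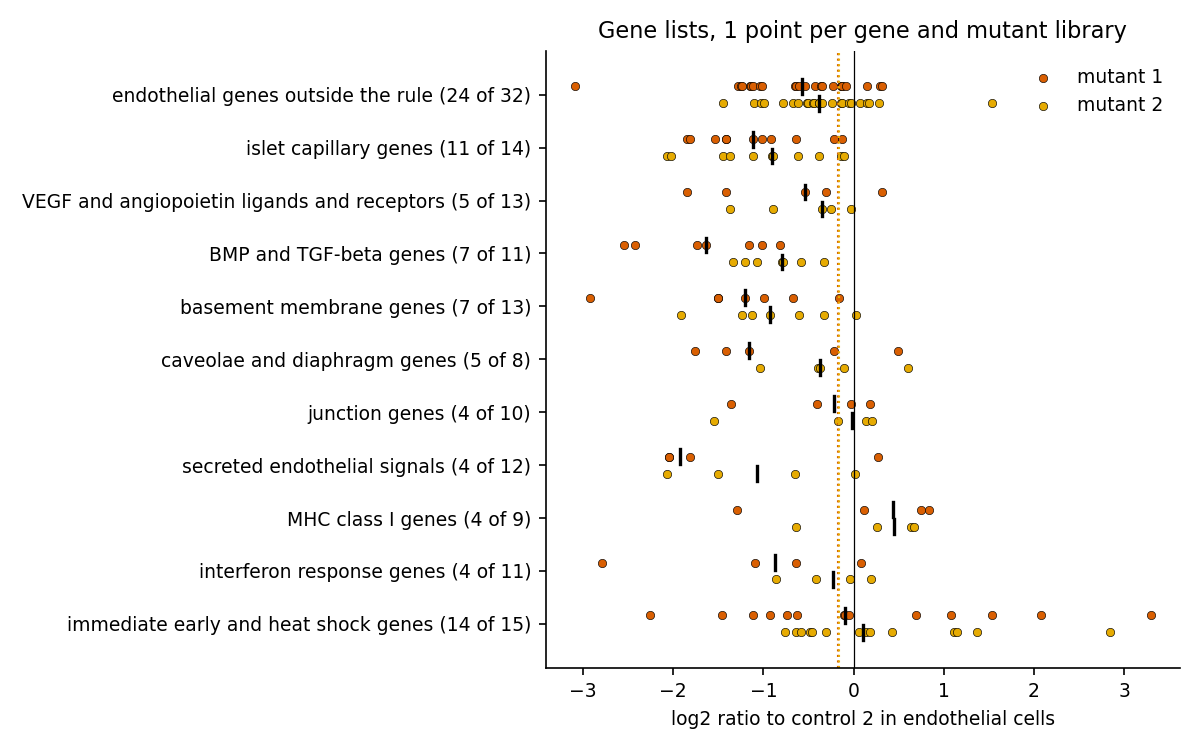
Each point is a measured gene of a list, with its log2 ratio to control 2 in mutant 1 or mutant 2, black bars are list medians, and dotted lines are medians over all 829 genes. The BMP and TGF-beta, capillary, basement membrane and secreted lists have medians between -1.93 and -0.80, and the MHC class I list has medians of 0.43 and 0.45.

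Ratios were also taken in 10 alternative settings that kept both mutant libraries and the limit of 1, among them other scalings, thinning, the depth window and other choices of cells. Of the 75 lower genes 14 passed the limit in all 10 settings, and 6 of these were endothelial by the 4-fold measure, Sparc, Igfbp7, Depp1, Dlc1, Crip1 and Aldh2. Of the 53 higher genes 14 did so, and 1 of these was endothelial, Ly6c2. Sost passed in 9 settings, missing in the depth window, and Kdr and Eng passed in 8. Kdr and Eng are selecting genes, so their counts of settings are a description. Depp1 was at 74.8, 76.6 and 557 CPM in mutant 1, mutant 2 and control 2. It reached the mean of 200 CPM only through control 2, so its place here is also a description. Settings that change only the CPM minimum leave the ratios as they are. With a minimum of 400 CPM, 9 of these 14 lower and 6 of these 14 higher genes were still measured, and Depp1 and Ly6c2 were not.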

How the data were processed

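The authors counted UMIs with DropEst. The deposited matrices hold raw whole-number counts, a row for each gene. The submitters' processing notes name GRCm39 and Seurat, and the aligner and annotation are not given in the sources used here. Gene positions are not given, since the reference at hand was of another build. Totals were 8448466, 9013499 and 36985253 UMIs over 3023, 2045 and 2308 barcodes. No doublet caller was run. Markers of other cell types were counted in each member instead.

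UMIs of members were summed per library. Ratios used TMM factors of edgeR 4.0.16 in R 4.3.3, a prior count of 1, a mean of 200 CPM or more and a limit of 1 on the log2 scale, with no test. Endothelial and other cells were compared as plain CPM with a limit of 2. Intervals are exact at 95% and cover counting error only. The counting step was checked on simulated data. Detection was compared in cells thinned to 500 UMIs (seed 7).

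The members, gene lists and alternatives were chosen with earlier results of these data known. The genes open to naming were the 8 selecting genes and Esm1, the 20 genes furthest above other cells, and the 10 highest and 10 lowest against control 2. List members with 20 UMIs or more or that define a list were added, with Ins1, Ins2, Gcg, Sst, Myt3, Myt1 and Vegfa. Not all of the list members are named in the text. Myt1 had 1, 2 and 2 UMIs in the members of mutant 1, mutant 2 and control 2, and Sst had 23, 66 and 36. Other genes named were chosen after their values were seen. Alternatives covered scaling, among them DESeq2 1.42.0 size factors, prior count, filters, thinning, cell choice and each mutant library left out. The alternatives without low-marker members and with members of 2000 to 8000 UMIs were chosen after seeing the data. The labels do not say that replicates came from separate animals.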

Additional observations from a re-analysis of the deposited data

Results flagged for a closer look

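Some genes stood on opposite sides of control 2 in endothelial and in the other kept cells of both mutant libraries, and these differences were not tested. The other kept cells differ in make-up between libraries, as given above, which cannot be told apart from level there. The genes shown passed the limit in endothelial cells or had every ratio past 0.5. Below control 2 in endothelial cells and above it in the others were Id1 (mean log2 ratio -0.80 in endothelial cells, and 1.33 and 1.34 in the others), Notch1 (-0.63, and 1.05 and 1.02), Heg1, a junctional receptor (-1.19, and 0.92 and 0.96), Bmpr2 (-0.98, and 0.78 and 0.62) and Ptprb, the endothelial phosphatase VE-PTP (-1.12, and 0.53 and 0.54). Bcr had a mean of -1.53 and ratios of 0.43 and 0.41 in the others, Podxl -1.03 with 0.17 and 0.60, and Nr4a1 -1.49 with 0.01 and 0.50. App had -1.38 with 0.02 and 0.04. Cd74 had -3.50 with 0.00 and 0.99, and its endothelial value rests on 1 leukocyte-marked cell. Above control 2 in endothelial cells and below it in the others were Ins2 (1.13, and -1.06 and -1.05), Gpx3 (1.98, and -0.90 and -0.77), Pcsk2 (1.96, and -0.35 and -0.34) and Syt13 (1.13, and -0.13 and -0.21). The rule limits insulin transcripts in members and places β cells among the others, so the Ins2 values are a description. Without the low-marker members the endothelial ratios in mutant 1 and mutant 2 were 1.40 and 0.10 for Ins2, 0.44 and 1.41 for Gpx3, 1.58 and 0.55 for Pcsk2 and 0.79 and 0.38 for Syt13, and those of Cd74 were -0.12 and 2.26. Id1 and Notch1 kept their sign in both mutant libraries in 9 of 10 alternative settings. Of the genes past the limit, Heg1 passed it in 0, Podxl in 1 and Nr4a1 in 3 of these settings. Bcr passed in 9, App in 8, Cd74 in 7, Pcsk2 in 6, Gpx3 in 5 and Syt13 in 4.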

How the results depend on the processing

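The endothelial share was 2.18% in mutant 1 and 2.63% in control 2 when 2 of the 8 genes sufficed, and 2.89% in mutant 2 and 5.17% in control 2 with no hormone limits. The median number of the 32 genes found per cell was 8, 8 and 9 at 500 UMIs. Higher genes numbered 113 and lower genes 175 with a minimum of 100 CPM, 27 and 34 with 400 CPM, 766 and 1744 with no filter, and 116 and 212 with a limit of 0.5. Lower genes numbered 48 with DESeq2 size factors, 48 with CPM outside hormone and mitochondrial genes, 38 with the mean over cells and 38 in members of 2000 to 8000 UMIs. Higher genes numbered 31 without the low-marker members. Leaving out a mutant library gave 53 to 81 higher and 126 to 182 lower genes. With a minimum of 100 CPM, 577 genes were 4-fold higher in endothelial cells. The share of called genes that were higher was 41.4%, and 56.4% with DESeq2 size factors, 61.0% without hormone and mitochondrial genes, 53.8% with thinned cells, 56.3% with the mean over cells, 54.8% in the depth window and 31.6% without the low-marker members. Of called named genes, the mean ratio of Cd74 turned to 1.24 without cells of mixed type, 1.21 with 4 of the 8 genes required and 1.07 without the low-marker members, and that of Mgp to 2.27 without cells of mixed type. Thinned cells gave 71 higher and 61 lower genes, of which 21 and 25 were among the genes reported. DESeq2 size factors raised ratios by 0.10 and 0.11 in the mutant libraries, and leaving out hormone and mitochondrial genes raised them by 0.16 and 0.19, which turned the median of junction genes in mutant 2 (to 0.17) and of immediate early and heat shock genes in mutant 1 (to 0.07). Among values of named genes under these alternatives, those of called genes changed sign in the 4 cases given above of 288. Those of genes not called changed sign in 49 of 264, where the reported mean ratios were at most 0.75 in size, Plvap, Emcn and Esm1 among them (0.02, 0.01 and 0.04 without hormone and mitochondrial genes). Depth limits genes with few UMIs, for which 1 UMI is 9.35, 9.58 and 3.06 CPM. No paired analysis was possible because the analysed libraries of the 2 genotypes share only 1 replicate number and no test was made.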

Other observations

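The methods state that each sample pooled males and females, while the paper's results say that the high-fat diet work focused on males. Xist, the transcript of the inactive X chromosome, had 0 UMIs in the endothelial cells of all 3 libraries. Ddx3y, a Y-linked helicase, had a UMI in 25 of 43, 23 of 34 and 32 of 40 of them, and at least 1 of the Y-linked genes counted in 28, 27 and 35. Aqp1, a water channel of some endothelia, had 3 UMIs in mutant 1, 86 in mutant 2, of which 57 lay in 1 cell, and 92 in control 2. Cxcr4, the receptor of CXCL12, had 8, 10 and 57 UMIs, and Apln, a ligand of sprouting tip cells, had 0, 0 and 12. Thbs1, a secreted inhibitor of vessel growth, had 3, 9 and 111 UMIs. Notch4, an endothelial Notch receptor, was at 234, 134 and 275 CPM, with ratios to control 2 of -0.23 and -1.01.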
